A study of Homo sapiens with 12 samples.

Results

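The human kallikrein genes encode secreted trypsin-like and chymotrypsin-like serine proteases that stand side by side on chromosome 19. Here 10 of them, KLK1, KLK2, KLK3, KLK4, KLK5, KLK10, KLK11, KLK12, KLK13 and KLK15, were followed through every array probe whose platform symbol was one of these names. They were read by 16 of the 47323 probes of the normalized table and are 10 of the 20044 named genes. The cells were LNCaP, an established line from a human prostate cancer, grown in medium with serum; the labels name no added androgen. Cells were transfected with pcDNA3.1_FoxA1, which holds the full-length FOXA1 cDNA, or with pcDNA3.1_GFP as control, both with Lipofectamine2000, and were harvested 48 h later. Total RNA of 6 FOXA1 and 6 GFP samples was read on Illumina bead arrays. Each array is named here by its group and the replicate number of its title. All samples come from 1 cell line, the plasmid's own viral promoter drives the cDNA, and the sources used here give neither the share of cells transfected nor whether the replicates came from different cultures. The p-values below therefore speak only of the spread among these arrays, part or all of which may be technical.

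Kallikreins are made as inactive precursors that other proteases, often other kallikreins, cut into active enzymes. In the prostate, luminal cells secrete KLK2 and KLK3 into seminal fluid, where KLK3, the prostate-specific antigen, liquefies the clot by cutting semenogelins, and KLK2 can activate the KLK3 precursor. Both are textbook androgen-induced genes, and FOXA1 is a pioneer factor that opens chromatin at many androgen-regulated enhancers. KLK4, also androgen-regulated in prostate, is best known for removing matrix proteins from maturing tooth enamel. The comparison asks whether adding FOXA1 moved these genes.

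The promoters of KLK3, KLK2 and KLK4 are shown because these 3 genes stood clearest above background and their patterns over the arrays are compared below. In the RefSeq annotation KLK15, KLK3, KLK2 and KLK4 are neighbours in that order among protein-coding genes. Each sequence gives 250 bases before and 50 bases after the annotated start on GRCh38.p14, read 5′ to 3′ on the gene's strand: chr19:50854665-50854964 on the plus strand for KLK3, chr19:50873189-50873488 on the plus strand for KLK2 and chr19:50911346-50911645 on the minus strand for KLK4. Capitals mark the matches to GAACA followed, after 4 bases of any kind, by GTNCT, the letters of the androgen response element of the KLK3 promoter.
KLK3: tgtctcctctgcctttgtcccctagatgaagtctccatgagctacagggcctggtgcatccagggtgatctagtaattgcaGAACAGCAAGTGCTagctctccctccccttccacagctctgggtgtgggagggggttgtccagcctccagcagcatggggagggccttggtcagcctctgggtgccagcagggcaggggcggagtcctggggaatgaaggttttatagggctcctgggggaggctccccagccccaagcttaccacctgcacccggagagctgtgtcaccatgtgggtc
KLK2: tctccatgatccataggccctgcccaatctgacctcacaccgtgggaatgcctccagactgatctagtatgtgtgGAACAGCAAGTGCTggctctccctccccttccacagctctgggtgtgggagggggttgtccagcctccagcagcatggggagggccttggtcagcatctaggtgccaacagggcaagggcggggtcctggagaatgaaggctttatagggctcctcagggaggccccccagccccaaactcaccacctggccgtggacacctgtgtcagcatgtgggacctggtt
KLK4: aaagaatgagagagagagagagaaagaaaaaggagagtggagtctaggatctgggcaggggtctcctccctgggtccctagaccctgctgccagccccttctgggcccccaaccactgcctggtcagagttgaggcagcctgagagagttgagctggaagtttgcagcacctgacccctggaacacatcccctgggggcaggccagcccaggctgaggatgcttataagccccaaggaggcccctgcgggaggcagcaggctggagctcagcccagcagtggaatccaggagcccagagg

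The KLK3 and KLK2 windows were alike: 251 of 287 aligned bases were identical, or 87.5%, and the longest stretch they shared without a difference was 80 bases. The capital letters began 169 bases before the KLK3 start and 175 bases before the KLK2 start. With 1 more base on the 5′ side, the element read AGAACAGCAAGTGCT in KLK3 and GGAACAGCAAGTGCT in KLK2, a change of A1G counted from the 5′ end of the KLK3 element. These letters were chosen after the KLK3 and KLK2 windows were read, so the matches there are no finding; they occurred in 87 of 35116 promoter windows of the same length, or 0.248%, searched on both strands. The palindromic element, AGAACA and TGTTCT with 3 bases between, was in the window of 0 members and of 1 gene in all, and its arm AGAACA was in that of KLK3 among the members and in 14.8% of all windows. It overlaps the capitals in KLK3. The forkhead letters TGTTTAC, found in 3.42% of all windows, and the looser TGTTTNC, found in 6318 of the 35116 windows, were in the windows of 0 of the 9 members that had one. No match says only that these letters are not in these 300 bases.

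Of the 10 members, 4 stood above the background estimate: KLK2, KLK3, KLK4 and KLK15. The estimate, 7.54 in normalised log2 intensity, is the 95th percentile of 784 probes that are only in the authors' non-normalized table, and all levels below are normalised log2 intensities. Levels of different probes are not ranked against each other. The KLK4 probe lay 5.66 above the estimate in its mean over the 12 arrays, KLK3 2.81, KLK2 2.29 and KLK15 0.35. On each array, before normalization, these 4 probes were above that array's own background on 12 of 12 arrays. Between 32.8% and 36.4% of all probes of an array were above it. By the highest-mean probe, as members and listed genes are counted here, 10581 of all 20044 genes stood above the estimate.

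**Figure D1:**
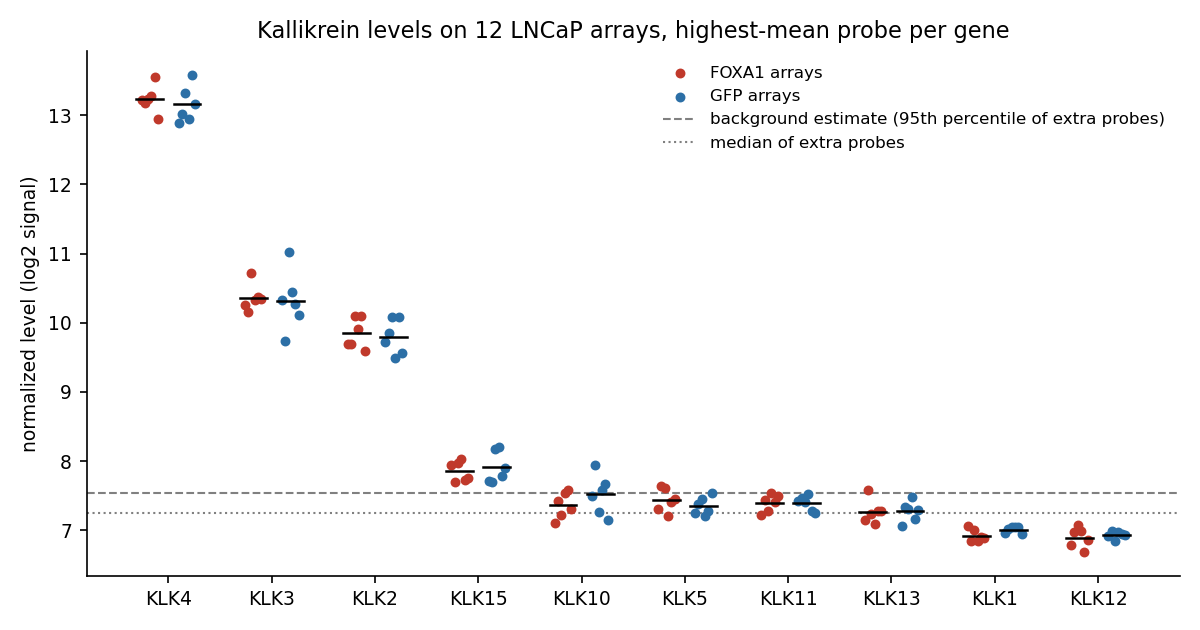
Normalised log2 signal (vertical axis) of the highest-mean probe of each kallikrein gene on the 6 FOXA1 arrays (red) and 6 GFP arrays (blue), 1 point per array, with group means as bars and background as dashed (7.54) and dotted (7.24) lines. KLK4, KLK3, KLK2 and KLK15 lie above the dashed line on average, the other 6 genes below it, and the red and blue points overlap for every gene.

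The other 6 genes did not stand above the estimate with any probe. KLK1, the tissue kallikrein that releases kinins from kininogen, averaged 6.97. KLK5, which in skin activates other kallikreins and cuts the junctions of shedding cells, was read by 3 probes at 6.66, 6.79 and 7.40. KLK10 was read at 6.90 and 7.44, KLK11 at 7.29 and 7.39, KLK12 at 6.61 and 6.91, and KLK13 at 7.27. Against the median of the same 784 probes, 7.24, the highest-mean probes of KLK5, KLK10, KLK11 and KLK13 were above and those of KLK1 and KLK12 below. For these genes a difference between arrays says little about the transcript. The second probe of KLK15 averaged 6.59, below background, and had a Pearson's r of 0.14 with the first over the 12 arrays. KLK15 thus rests on 1 probe that is not far above the estimate.

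The luminal markers of the labelled cell line were present. Of 5 luminal prostate markers measured, 5 were above background, with KRT8 at 10.96, KRT18 at 9.08, FOLH1 at 11.32, SLC45A3 at 12.59 and HOXB13 at 10.77, and of 4 basal markers 0 were. Of 5 stromal markers 2 were above it, COL1A1 at 7.54 and ACTA2 at 9.89, and of 5 leukocyte markers 3, CD68 at 8.54, MS4A1 at 7.57 and CD2 at 7.60. The mean of the stromal list ran from 7.82 to 8.19 on FOXA1 arrays and from 7.84 to 8.25 on GFP arrays, and that of the leukocyte list from 7.51 to 7.77 and from 7.48 to 7.74.

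The added FOXA1 was not visible as a rise of the FOXA1 probe. It read 13.43 ± 0.13 (SD, n = 6) on the FOXA1 arrays and 13.30 ± 0.16 (SD, n = 6) on the GFP arrays. They differed by 0.13 ± 0.087 (standard error; limma adjusted p = 1.00). Whether the 1 probe reads the plasmid's transcript is not known here, and every comparison of groups below is a comparison of arrays by their labels.

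Of the 10 kallikreins 0 rose and 0 fell in the FOXA1 arrays: over all 47317 probes 0 passed an adjusted p of 0.05 in limma, a percentage of 0, and 1502, or 3.17%, had an unadjusted p under 0.05. Among the 16 kallikrein probes 0 had an unadjusted p that low. By the highest-mean probe, the FOXA1 mean exceeded the GFP mean for 5 members and lay under it for 5. The median of these differences was 0.0017, beside 0.0065 over all 20044 genes. The groups did not overlap for 57 probes, or 0.12% of all, and for 0 of the kallikrein probes. Fewer cells with a transcript and less transcript per cell cannot be told apart in such bulk samples.

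KLK4 had its lowest level, 12.94, on FOXA1 6, a median of 13.22 and its highest level, 13.55, on FOXA1 5 among FOXA1 arrays. Among GFP arrays it ran from 12.88 on GFP 1 through a median of 13.10 to 13.59 on GFP 5. All 6 FOXA1 arrays lay within the GFP range, and the highest array of both groups carried the number 5. The group means were 13.23 ± 0.20 and 13.16 ± 0.26 (SD, n = 6 each), and they differed by 0.075 ± 0.12 (standard error; exact permutation p = 0.593, n = 6 against 6). Its 95% interval ran from 0.888-fold to 1.25-fold.

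KLK3 ran from 10.16 on FOXA1 2 through a median of 10.33 to 10.72 on FOXA1 3 among FOXA1 arrays. Among GFP arrays it ran from 9.74 on GFP 2 through a median of 10.30 to 11.02 on GFP 3, so that all FOXA1 arrays lay within the GFP range and both ends of the whole spread were control arrays. The means, 10.36 ± 0.19 and 10.32 ± 0.42 (SD, n = 6 each), differed by 0.041 ± 0.15 (standard error; exact permutation p = 0.861, n = 6 against 6), and its 95% interval ran from 0.821-fold to 1.29-fold. The difference turned to -0.075 without GFP 2 and rose to 0.18 without GFP 3. It also lay below 0 without FOXA1 3 (-0.030) or GFP 6 (-0.0021).

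KLK2 ran from 9.59 on FOXA1 6 through a median of 9.80 to 10.10 on FOXA1 5 among FOXA1 arrays, and from 9.49 on GFP 4 through a median of 9.78 to 10.08 on GFP 3 among GFP arrays. Here 2 FOXA1 arrays lay above every GFP array, by a small margin, and the other 4 within the GFP range. The means were 9.85 ± 0.22 and 9.80 ± 0.25 (SD, n = 6 each), and they differed by 0.052 ± 0.12 (standard error; exact permutation p = 0.688, n = 6 against 6). The 95% interval ran from 0.871-fold to 1.23-fold, and without GFP 4 the difference was -0.0088.

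KLK15 is a neighbour of KLK3 whose protein can activate the KLK3 precursor in vitro. Of the members above the background estimate, it was the 1 with a lower mean in the FOXA1 arrays. It ran from 7.70 through a median of 7.85 to 8.03 on FOXA1 arrays and from 7.70 through a median of 7.84 to 8.20 on GFP arrays, with all FOXA1 arrays within the GFP range. FOXA1 minus GFP was -0.058 ± 0.10 (standard error; exact permutation p = 0.619, n = 6 against 6). With the mean over both KLK15 probes it was 0.0025.

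**Figure D2:**
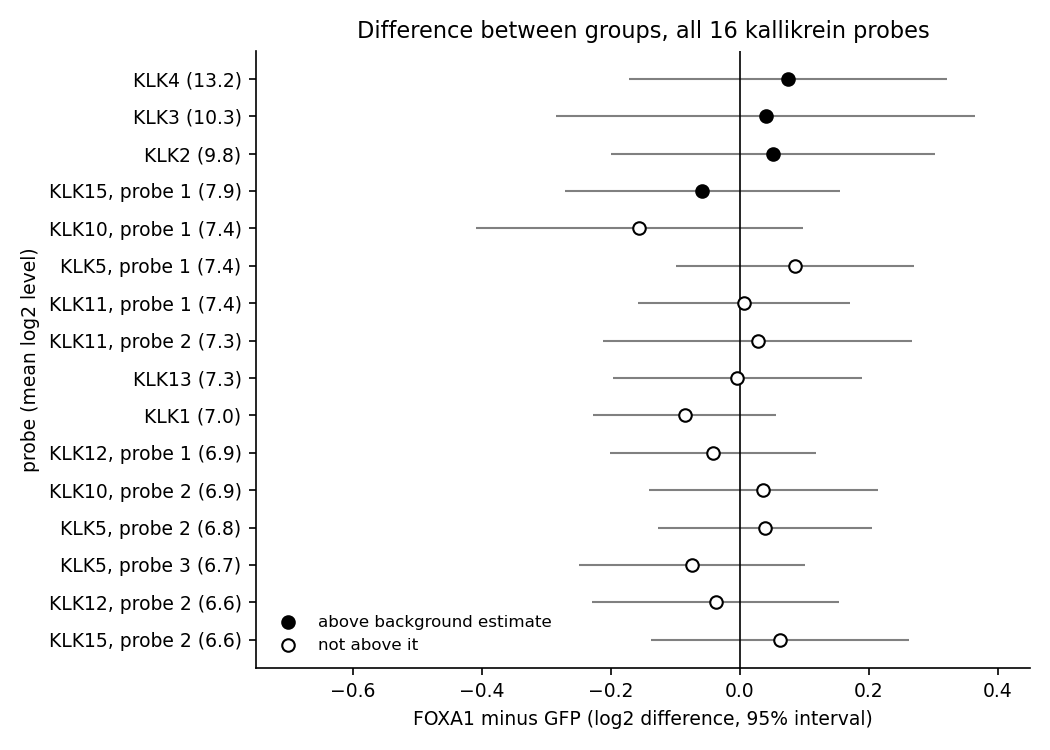
FOXA1 minus GFP difference in log2 signal (horizontal axis) with its 95% interval from limma for each of the 16 kallikrein probes, ordered by mean level, which stands beside each name. Filled points are the 4 probes above the background estimate, and every interval includes 0.

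Among the members not above background, the differences by the highest-mean probe ran from -0.16 for KLK10 to 0.086 for KLK5. KLK1 came nearest to a separation of the groups: 4 of 6 FOXA1 arrays lay below every GFP array and 1 above every GFP array. The means were 6.92 ± 0.088 and 7.01 ± 0.050 (SD, n = 6 each). FOXA1 minus GFP was -0.085 (exact permutation p = 0.0714, limma unadjusted p = 0.220, n = 6 against 6). The SD of KLK1 within groups, 0.071, was at the 0.94th percentile of 8493 genes of like level. KLK10 ran from 7.11 to 7.58 on FOXA1 arrays and from 7.15 to 7.95 on GFP arrays, with GFP 2 highest of all. KLK5 ran from 7.21 to 7.64 on FOXA1 arrays and from 7.21 to 7.54 on GFP arrays. KLK11, which is expressed in prostate and hippocampus among other tissues, ran from 7.22 to 7.54 and from 7.25 to 7.52, KLK12 from 6.69 to 7.07 and from 6.85 to 6.99, and KLK13 from 7.10 to 7.58 and from 7.06 to 7.49 in the same order. For each of these 5 genes the groups overlapped. At these levels the values describe signal near background. Different probes of 1 gene did not move together there: Pearson's r over the 12 arrays was 0.034 for both KLK10 probes, 0.25 for KLK11, 0.36 for KLK12 and from -0.48 to 0.28 for the 3 KLK5 probes.

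The kallikreins above the background estimate varied more between arrays of 1 group than between the groups. KLK3 spanned 1.28 on the log2 scale over the 12 arrays, a 2.43-fold range, KLK4 0.70 or 1.63-fold, KLK2 0.61 or 1.53-fold and KLK15 0.50 or 1.42-fold. The SD within groups was 0.33 for KLK3, at the 84.6th percentile of the 1629 genes within 0.5 of its level, where the median gene had 0.21. It was 0.23 for KLK4, at the 78.9th percentile of 355 such genes, and 0.24 for KLK2, at the 62.0th of 1923. KLK10, below background, had an SD of 0.24 within groups, at the 95.3rd percentile of 9458 genes of like level, and read highest on GFP 2 with 7.95.

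**Figure D3:**
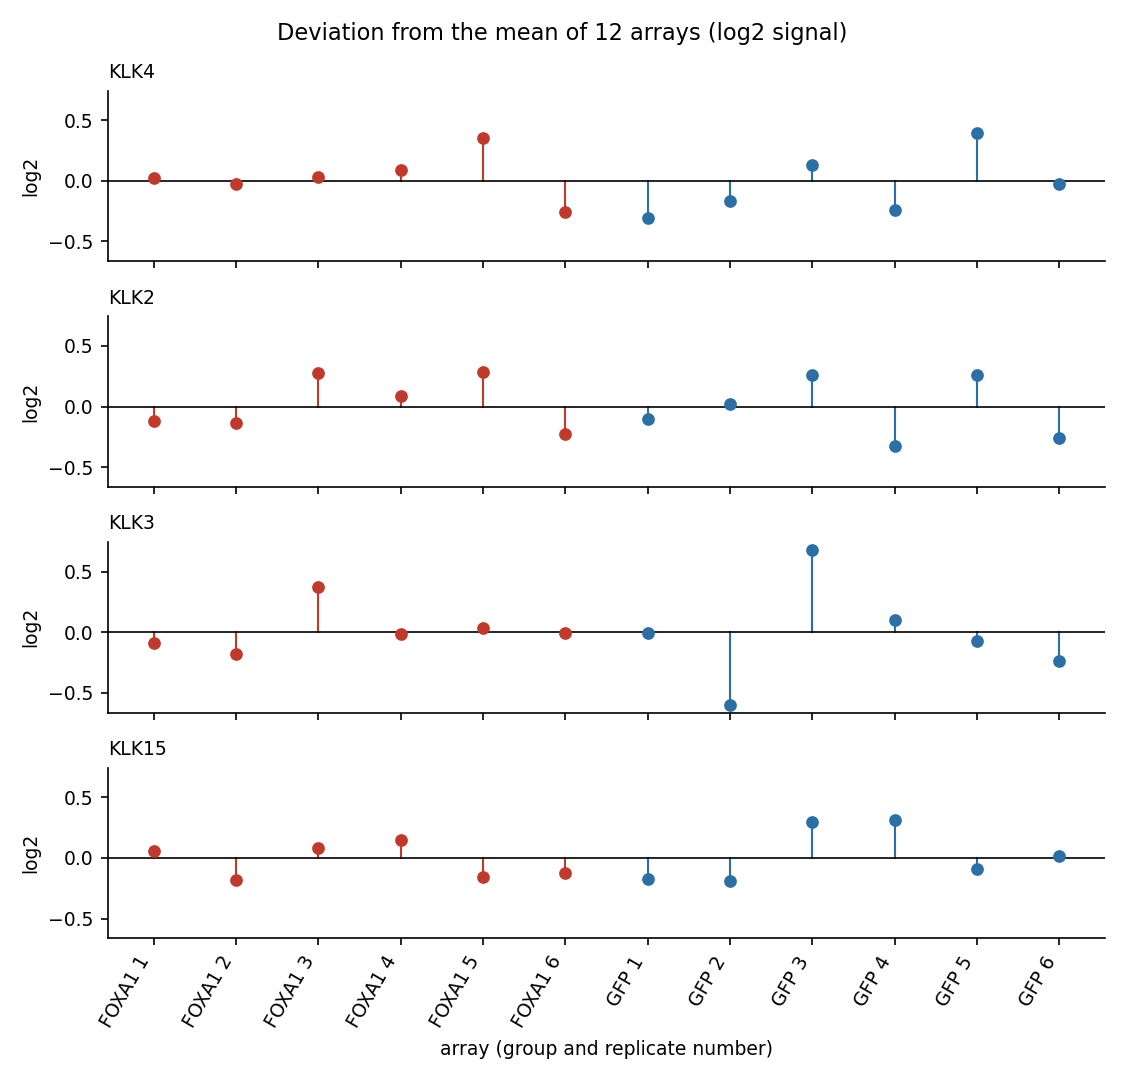
Deviation of each array from the mean of all 12 arrays in log2 signal (vertical axis) for KLK4, KLK2, KLK3 and KLK15, with FOXA1 arrays in red and GFP arrays in blue. KLK4 and KLK2 are both high on FOXA1 5 and GFP 5, and KLK2 is about as high on FOXA1 3 and GFP 3. KLK3 is highest on GFP 3, next on FOXA1 3 and lowest on GFP 2.

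Over the 12 arrays the levels of KLK2 and KLK4 were correlated, a call that 5 of the other settings tried did not keep. The correlations of KLK3 with either did not pass the test. For KLK2 and KLK4 Pearson's r was 0.76 (permutation p = 0.00446, adjusted over 3 pairs 0.0134) and Spearman's rho was 0.73 (permutation p = 0.00896, adjusted 0.0269), n = 12. Without FOXA1 5 and FOXA1 3, the arrays farthest from the median of KLK2, r was 0.74. This kept the same-numbered GFP 5 and GFP 3, where KLK2 was also high, at 10.08 each. The permutation takes the 12 arrays as independent, but arrays numbered 3 and 5 were alike across the groups, as given below. Pearson's r was 0.78 among the 6 FOXA1 arrays (exact permutation p = 0.025, adjusted 0.075) and 0.74 among the 6 GFP arrays (exact permutation p = 0.0972, adjusted 0.292). Leaving out FOXA1 5 and GFP 5, the arrays with the highest KLK4, ended the call: r was 0.62 (permutation p = 0.0574, adjusted 0.172), a setting chosen after the values were seen. So did median centring of the non-normalized table, with r at 0.62 (permutation p = 0.0317, adjusted 0.0952). In the replicate block, which takes deviations from group and replicate number means, r was 0.34. There the 2 arrays of a number mirror each other, so the 12 values cannot be permuted as separate ones. No p is given for it.

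For KLK2 and KLK3 r was 0.41 (permutation p = 0.197, adjusted 0.295) and rho was 0.38 (permutation p = 0.228, adjusted 0.342), n = 12. Within the groups r was 0.70 over the 6 FOXA1 arrays (exact permutation p = 0.0903) and 0.32 over the 6 GFP arrays (exact permutation p = 0.569), and it was 0.31 without FOXA1 5 and FOXA1 3. For KLK3 and KLK4 r was 0.22 (permutation p = 0.494, adjusted 0.494) and rho was 0.19 (permutation p = 0.554, adjusted 0.554), n = 12, with 0.12 over the FOXA1 arrays (exact permutation p = 0.75) and 0.25 over the GFP arrays (exact permutation p = 0.639). Without GFP 3 and GFP 2, the arrays farthest from the median of KLK3, r was -0.047. Whether the correlation of KLK2 with KLK4 differs from those with KLK3 was not tested. As a description, KLK4 ranked 36th in likeness to KLK2 among 10580 genes above background and KLK3 ranked 1397th. Whether the probe of KLK2 or KLK3 also reads the other transcript was not tested.

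The KLK15 probe had its highest correlation with KLK3, a relation chosen after its values were seen and therefore given without a test. Pearson's r of KLK15 was 0.64 with KLK3, with a Spearman's rho of 0.59, and 0.020 with KLK4 and -0.0049 with KLK2, n = 12. Without GFP 4 and GFP 3, where KLK15 was highest, r with KLK3 was 0.44. The second KLK15 probe, which was below background, had an r of 0.13 with KLK3.

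**Figure D4:**
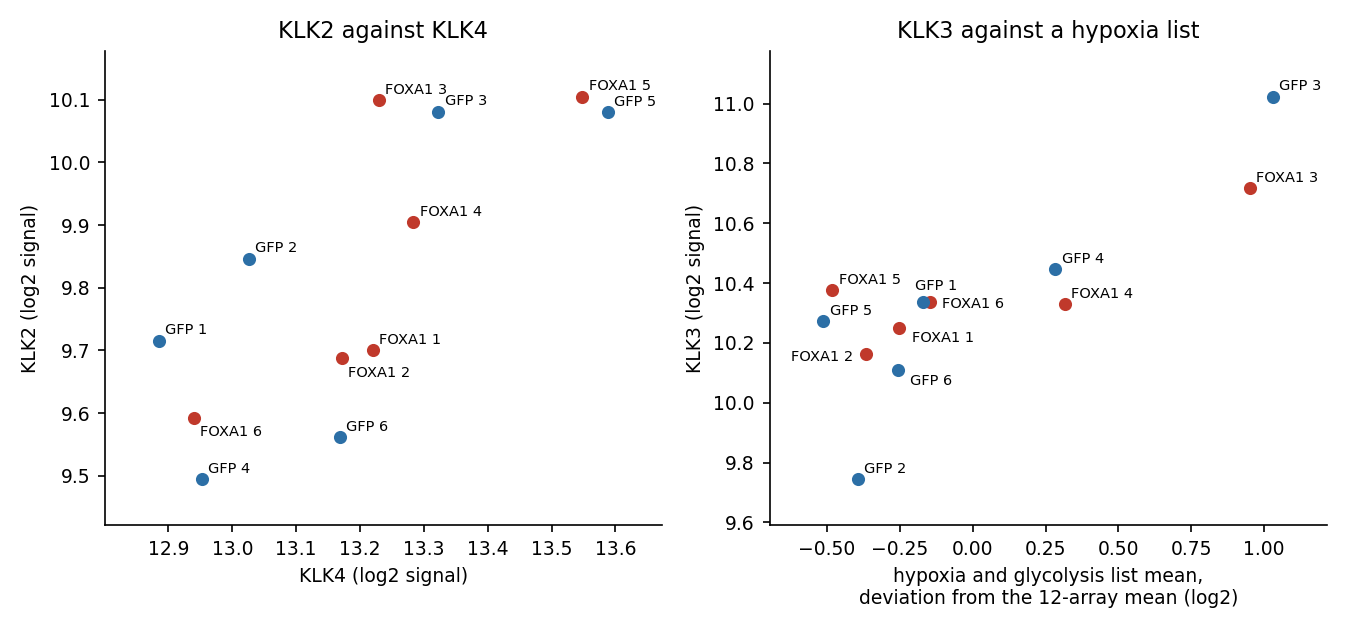
Left, KLK2 against KLK4; right, KLK3 against the mean of 9 hypoxia and glycolysis genes as its deviation from the mean of all arrays. Each point is 1 of the 12 arrays (FOXA1 red, GFP blue) in log2 signal. On the left r is 0.76, with FOXA1 5 and GFP 5 at the upper right; on the right FOXA1 3 and GFP 3 stand apart from the other arrays.

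The levels of 3 other gene lists are set beside these patterns as a description, with no test, and several of their relations to the kallikreins shrank or turned when 2 arrays were left out. Over 9 hypoxia and glycolysis genes, chosen like the other lists with earlier results of these arrays known, the array mean stood 1.03 above its overall mean on GFP 3 and 0.95 above it on FOXA1 3, the arrays with the highest KLK3, and 0.28 on GFP 4 and 0.32 on FOXA1 4. Its r was 0.81 with KLK3, 0.76 with KLK15, 0.29 with KLK2 and -0.063 with KLK4, n = 12. Without FOXA1 3 and GFP 3, r with KLK3 was 0.43, with KLK2 -0.46 and with KLK4 -0.44. The values on those 2 arrays thus carry a large share of the relation with KLK3. All 9 genes had a positive r with KLK3, where the median r over all 10580 genes was 0.0071. Genes of such a list can move together, so they are not 9 separate observations.

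A list of 15 DNA replication and mitosis genes went the other way to KLK2 and KLK4. Its r was -0.63 with KLK2, -0.58 with KLK4 and -0.24 with KLK3, n = 12. A negative r with KLK2 and with KLK4 was found for 15 of 15 genes, which can likewise move together. Over all 10580 genes the median r was 0.041 with KLK2 and 0.031 with KLK4. The list mean was lowest on GFP 3, at -0.30, GFP 5, at -0.28, and FOXA1 5, at -0.23, and highest on GFP 6, at 0.22. Without FOXA1 5 and GFP 5, r was -0.43 with KLK2 and -0.18 with KLK4. Over 8 interferon-stimulated genes the list mean was highest on GFP 5, at 0.61, and FOXA1 5, at 0.53, where KLK4 was also highest. Its r of 0.58 with KLK4 turned to -0.25 without these 2 arrays. The part of these programs in the kallikrein patterns was not tested.

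By the rule for likeness, the genes above background whose pattern was most like the mean of KLK2, KLK3 and KLK4 were EPHX2, the soluble epoxide hydrolase, with an r of 0.91, BCL2L2, a survival protein, with 0.89, EXOC4, a subunit of the exocyst that tethers secretory vesicles, with 0.89, PARP3 with 0.88, CDKN1C, an inhibitor of cyclin-dependent kinases, with 0.87, and the chromatin remodelling subunit SMARCD3 with 0.87, n = 12. The most opposed were CIP2A, an inhibitor of protein phosphatase 2A, with -0.91, MCM10, a replication initiation factor, with -0.90, CMSS1 with -0.90 and BCL2L12 with -0.90. These 10 are the extremes of 10580 genes over 12 arrays, and such extremes are large by selection alone. With deviations from group means r ran from 0.87 to 0.92 for the first 6 and from -0.94 to -0.90 for the other 4. The groups differed little in KLK2, KLK3 and KLK4, so this setting could hardly change r and lends the likeness no support.

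The relations of the FOXA1 probe with KLK2, KLK3 and KLK4 did not pass the test over the 12 arrays. Pearson's r of the FOXA1 probe was 0.29 with KLK2 (permutation p = 0.365, adjusted over 3 relations 0.365), 0.44 with KLK3 (permutation p = 0.145, adjusted 0.365) and 0.36 with KLK4 (permutation p = 0.252, adjusted 0.365), n = 12. Spearman's rho was 0.33 (permutation p = 0.299), 0.41 (permutation p = 0.193) and 0.31 (permutation p = 0.322) in the same order, each 0.322 after adjustment. Without GFP 2 and FOXA1 3, where FOXA1 was farthest from its median, r with KLK3 turned to -0.35, so that relation rests on those arrays. Within the 6 FOXA1 arrays r was 0.77 with KLK2, 0.87 with KLK3 and 0.26 with KLK4, and within the 6 GFP arrays -0.088, 0.33 and 0.36. Neither these values within groups nor the difference between the groups was tested. Of the 6 FOXA1 arrays, FOXA1 3 had the highest FOXA1 and, at 10.72, the highest KLK3. FOXA1 was lowest on GFP 2 at 13.01, the array with the lowest KLK3, and highest on FOXA1 3 at 13.62.

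**Figure D5:**
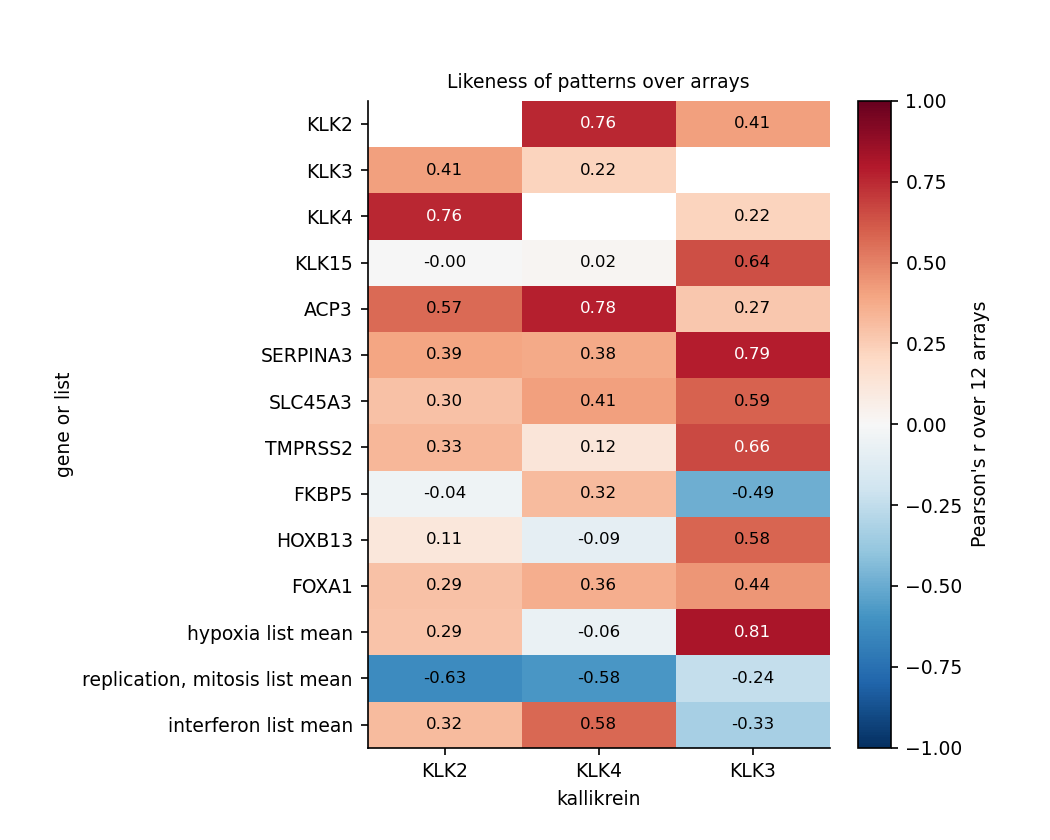
Pearson's r over the 12 arrays of KLK2, KLK4 and KLK3 (columns) with the kallikreins above background, partner and androgen-regulated genes and 3 list means (rows), printed in each cell and coloured from -1 (blue) to 1 (red). KLK2 and KLK4 share a high value of 0.76, and KLK3 has 0.81 with the hypoxia list mean and 0.64 with KLK15.

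Androgen-induced genes outside the family ran both with and against the kallikreins over the arrays. Of 33 measured genes of the list, the FOXA1 mean exceeded the GFP mean for 24 and lay under it for 9, and 0 passed the test in either direction. The median was 0.068, beside 0.0065 over all genes. By smallest p they were NCAPD3, a condensin subunit, with 0.33, SMS, which makes spermine, with 0.24, MPHOSPH9 with 0.18 and TARP with 0.32 (limma adjusted p = 1.00 each). The serine protease gene TMPRSS2 differed by 0.20 ± 0.22 (standard error), and the receptor co-chaperone gene FKBP5 by 0.21 ± 0.13. Over the 32 genes above background the median r was -0.024 with KLK2, -0.14 with KLK3 and 0.12 with KLK4, beside 0.041, 0.0071 and 0.031 over all 10580 genes. Single genes ran from -0.86 for MAF to 0.80 for NDRG1 with KLK3, and NDRG1 is also in the hypoxia list. TMPRSS2 had an r of 0.66 with KLK3 and 0.12 with KLK4, and FKBP5 had -0.49 and 0.32, n = 12.

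Of the listed partner factors of the hormone receptor, 9 were measured, with FOXA1 itself among them. Of these, 7 were higher and 2 lower, with 0 past the test and a median of 0.090. Over all 20044 genes 10586 were higher and 9458 lower. GRHL2 differed by 0.37 ± 0.17 (standard error) and GATA2 by 0.24 ± 0.15, while NCOA2, not above background, differed by 0.14. HOXB13, a prostate lineage factor, had an r of 0.58 with KLK3 and -0.093 with KLK4, n = 12.

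Of 9 kallikrein inhibitors measured, 1 was above background: SERPINA3, antichymotrypsin, which binds KLK3 in blood. It differed by 0.039 ± 0.17 (standard error), and its r was 0.79 with KLK3, 0.39 with KLK2 and 0.38 with KLK4, n = 12. SERPINA5, SERPINF2, SERPINA1 and SERPINC1, which had the smallest p of the list, differed by 0.14, 0.12, -0.12 and 0.057 at levels below background. In this list 8 genes were higher and 1 lower, with a median of 0.037 and 0 past the test. Of 11 genes measured from a list of kallikrein substrates and seminal partners, 5 were above background. ACP3, the prostatic acid phosphatase, at 9.96, had an r of 0.78 with KLK4, 0.57 with KLK2 and 0.27 with KLK3. The seminal protein gene MSMB had 0.095, -0.49 and -0.71 with KLK3, KLK2 and KLK4, but its level, 7.64, was near background. This list had 3 genes higher and 8 lower, with a median of -0.044 and 0 past the test, and PLAU, PLAUR, MSMB and KNG1 differed by -0.12, -0.085, -0.093 and 0.065.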

How the data were processed

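For the 12 arrays the authors deposited a table that its header calls non-normalized (48107 probes) and a table of values normalized between arrays (47323 probes). Judged by their range, the deposited values of both are on a log2 scale. The rank order of probes within an array was the same in both. Programs and background correction: not given in the sources used here. Work began from the normalized table without the 6 probes that lack a value, and no filter on low values was applied, so that every kallikrein probe entered the fit. Gene names came from the platform's annotation, which gives 1 symbol for 30113 probes of the table, several for 8 and does not list 17202. Where a gene had several probes, the one with the highest mean over the 12 arrays stood for it, and the others are given as values.

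Background was estimated from the 784 probes that only the non-normalized table holds. They have no stated role. They were brought to the normalized scale array by array, and the 95th percentile of their means was used. Differences are FOXA1 minus GFP. They were tested two-sided with lmFit and eBayes of limma 3.58.1 (R 4.3.3), with Benjamini-Hochberg adjustment over all 47317 probes and a threshold of 0.05. Single probes were also tested by exact permutation over 924 arrangements, for which the smallest possible p is 0.00216. Correlations were tested with 100000 permutations, or with all arrangements for fewer than 10 arrays. The fit was tested on simulated data. Precision is limited by how few arrays there are: the 95% interval of a difference typically (median) reached 0.19 to either side on the log2 scale.

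The members and the lists were chosen with earlier results of these data known. Genes were named by this rule: all members, up to 4 genes of each list with the smallest p, a few factors and androgen-regulated genes, and the genes whose pattern over the arrays was most like or unlike that of KLK2, KLK3 and KLK4. Genes of the lists that were not measured are not analysed here. Promoter windows came from RefSeq (GRCh38.p14) and were matched by symbol for 9 of 10 members.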

Additional observations from a re-analysis of the deposited data

Results flagged for a closer look

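In 2 of 32 sets of 6 arrays (16 probes in 2 groups), 1 array stood apart from the other 5, where chance alone flags about 1 in 20 sets. Both were KLK5 probes below background. One probe read 7.08 on FOXA1 6, with the next FOXA1 array at 6.81 and the lowest at 6.66. The other read 6.48 on GFP 3, with the next GFP array at 6.69 and the highest at 6.81. The third KLK5 probe showed no such array.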

How the results depend on the processing

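No kallikrein probe or other probe passed the threshold in the main fit or in any of 18 other settings for the count over probes. Of the recomputed differences 167 kept their sign and 18 turned. The replicate block, the variance trend and the filter on low values cannot change a difference, nor can a mean over probes for a gene with 1 probe. The signs kept there were fixed in advance and say nothing about stability. Leaving out 1 array at a time, the difference ran from -0.11 to -0.069 for KLK1, -0.0088 to 0.11 for KLK2, -0.075 to 0.18 for KLK3, 0.012 to 0.16 for KLK4, 0.045 to 0.13 for KLK5, -0.23 to -0.070 for KLK10, -0.022 to 0.042 for KLK11, -0.077 to -0.00018 for KLK12, -0.066 to 0.039 for KLK13 and -0.10 to -0.00019 for KLK15. KLK13 turned to 0.056 without GFP 3, FOXA1 3 and FOXA1 4 together, and KLK15 to 0.0025 with a mean over probes.

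The correlation of KLK2 and KLK4 ran from 0.70 to 0.80 with 1 array left out. It lost its call at 0.62 with median centring and at 0.62 without FOXA1 5 and GFP 5. Within the FOXA1 and GFP groups, where 6 arrays are fewer, it lost its call at 0.78 and 0.74. With the replicate block it was 0.34, without a valid test. That of KLK2 and KLK3 ran from 0.24 to 0.54, and turned to -0.084 without GFP 3, FOXA1 3 and FOXA1 4; that of KLK3 and KLK4 ran from 0.10 to 0.31 and turned to -0.047 without GFP 3 and GFP 2. Causes were not tested.

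Arrays of the 2 groups share replicate numbers, but the numbers are not shown to pair them: over 12420 genes the deviations of same-numbered arrays correlated at 0.20, 0.27, 0.53, -0.27, 0.64 and 0.25 for numbers 1 to 6, and only numbers 3 and 5 matched each other best. For number 3 the margin was narrow, 0.531 against 0.527 with another number, and 0.527 was also the highest for number 4. With the replicate block 0 probes passed, and 816 were higher and 874 lower at an unadjusted p under 0.05, beside 688 and 814 in the fit without it. The block brought r to 0.34 for KLK2 and KLK4, to -0.49 for KLK2 and KLK3 and to -0.17 for KLK3 and KLK4. None of these values has a valid test. Against the median of the extra probes, 8 members in place of 4 were above background.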

Other observations

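Taken gene by gene, a choice made after the values were seen, the patterns most like each kallikrein belonged to different genes. KLK3 was most like RNF103, a ubiquitin ligase of the endoplasmic reticulum (r = 0.92), COPG2, a coat subunit of transport vesicles (0.92), the ceramide kinase CERK (0.90), GOLPH3L of the Golgi apparatus (0.90), MORN4 (0.90) and TBCK (0.89), n = 12 arrays. It was most opposed to SS18L2 (-0.97), FBXL6 (-0.93), CCDC86 (-0.93) and POLR1G, a subunit of RNA polymerase I (-0.93). KLK4 was most like CYB5R3, the cytochrome b5 reductase (r = 0.91), the splicing factor RBM5 (0.89), BAIAP2L1 (0.88), TMC6 (0.87), HELZ2 (0.87) and APLP1 (0.86), and most opposed to the mitosis genes ASPM (-0.88) and PBK (-0.85), OIP5 (-0.85) and PRR11 (-0.84). KLK2 was most like EXOC4 (r = 0.90), ZNF75D (0.87) and CCDC9B (0.86), and most opposed to CMSS1 (-0.89) and the microtubule depolymerase KIF2A (-0.88). HELZ2 is also in the interferon list used above. These are extremes of 10580 genes over 12 arrays and carry no test.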
